A study of Rattus norvegicus with 93 samples.

Results

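The levels of 10 interferon-induced antiviral effector genes were followed in rat bone marrow after topotecan, oxaliplatin or both. The members were Mx1, Mx2, Ifit1, Ifit2, Ifit3, Oas1a, Oasl, Isg15, Isg20 and Rsad2, 10 of the 7810 genes that a probe set of the table names alone. These 10 symbols had 12 of the 12532 probe sets tested, and for each gene the probe set with the highest mean over all 93 arrays was used. Ifit2 and Mx2 had a second probe set each.

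Male Sprague-Dawley rats of 8 weeks received a first and a second intravenous infusion of 30 minutes each, once. The second began 30 minutes after the first had ended. Times are counted from the end of dosing, so a drug given first had been given earlier than a drug given second. The topoisomerase I inhibitor topotecan was dosed at 4.7 mg/kg. Oxaliplatin, which forms platinum adducts on DNA, was dosed at 15 mg/kg. The 8 treatments are written first infusion/second infusion: topotecan/oxaliplatin and oxaliplatin/topotecan, then with topotecan alone topotecan/D5W and D5W/topotecan, with oxaliplatin alone oxaliplatin/NaCl and NaCl/oxaliplatin, and the vehicles NaCl/D5W and D5W/NaCl, where NaCl (saline) is the vehicle of topotecan and D5W (dextrose in water) that of oxaliplatin. Marrow was flushed from the left femur 1, 6 or 24 h after dosing and hybridised to an Affymetrix rat genome array, 1 array per rat, with 4 rats in 21 of the 24 groups and 3 in the remaining 3 groups, oxaliplatin/NaCl killed at 6 h and topotecan/D5W and D5W/NaCl killed at 24 h. Each treatment was compared with the vehicle of its own order (NaCl/D5W where topotecan came first or oxaliplatin second, D5W/NaCl otherwise), so 3 treatments shared each vehicle group.

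Interferons are cytokines that bind cell surface receptors and, through receptor-bound kinases and transcription factors such as Irf9, switch on genes with an interferon-stimulated response element in their promoter. The products hinder virus growth: Mx proteins are dynamin-like GTPases, Ifit proteins bind foreign RNA, Oas enzymes make oligoadenylates that activate an RNase, Isg15 is a ubiquitin-like modifier, Isg20 is an exonuclease and Rsad2 (viperin) makes a chain-terminating nucleotide. Marrow cells of many lineages can respond to interferon, and plasmacytoid dendritic cells are a well known source of it.

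Promoter sequence from RefSeq (build GRCr8) was at hand for 6 members, as windows of 250 bases before to 50 bases after the annotated start. The response element core was searched on both strands as GAAA, any 2 bases and GAAA again, which reads TTTC, 2 bases and TTTC on the other strand. It was found in 4 of the 6 windows (Ifit3, Oas1a, Isg20 and Rsad2) and not in those of Mx1 and Oasl, against 3.92% of all 33469 windows of the same length. Within the last 120 bases before the start, 3 of the 6 had a match, against 1.58% of all windows. The 120 bases before the start are shown for the 3 members with a match there and for Mx1, the member that differed most from vehicle in the topotecan groups at 24 h, which had no match, with matching letters in capitals. They lie at chr1:241527206-241527325 (plus strand) for Ifit3, chr12:41330346-41330465 (plus strand) for Oas1a, chr1:142239939-142240058 (plus strand) for Isg20 and chr11:50294607-50294726 (minus strand) for Mx1.
Ifit3: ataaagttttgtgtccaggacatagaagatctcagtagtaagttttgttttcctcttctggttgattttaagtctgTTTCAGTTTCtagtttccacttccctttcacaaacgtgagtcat
Oas1a: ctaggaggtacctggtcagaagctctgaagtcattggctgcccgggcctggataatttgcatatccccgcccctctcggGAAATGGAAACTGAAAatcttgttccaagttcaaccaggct
Isg20: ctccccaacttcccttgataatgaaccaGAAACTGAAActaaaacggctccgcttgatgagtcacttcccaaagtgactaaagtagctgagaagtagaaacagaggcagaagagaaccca
Mx1: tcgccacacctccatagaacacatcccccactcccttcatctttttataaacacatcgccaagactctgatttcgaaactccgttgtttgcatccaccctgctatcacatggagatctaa
The Ifit3 match ended 34 bases before the start, the 2 overlapping Oas1a matches 31 and 25 bases before it, and the Isg20 match 82 bases before it. The Rsad2 match lay farther upstream, 137 bases before the start. Binding was not measured here, and a match is only a description of the letters.

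All levels are log2 signals, normalised over all arrays by the authors, so 1 unit is a 2-fold change. A member was called higher or lower at a Benjamini-Hochberg adjusted p under 0.01 over all 12532 probe sets (limma) with a fold above 2, and "rose" or "fell" is written only of such calls. In whole marrow, a smaller number of cells of a type and less RNA per cell cannot be told apart. Labels say that each array is 1 rat, so the spread is that between animals.

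At 1 h few members differed from vehicle by this call. It was met once, by Oas1a in D5W/topotecan, as 1 of 10 members against 1.09% of all probe sets. It was met by 0 of 10 in topotecan/oxaliplatin (1.4% of all probe sets higher), oxaliplatin/topotecan (1.35%), topotecan/D5W (1.11%), oxaliplatin/NaCl (0.215%) and NaCl/oxaliplatin (0.0958%). At an unadjusted limma p under 0.05, 4, 0, 3, 0 and 0 members differed in these 5 comparisons in the same order, and 6 in D5W/topotecan. The member median difference was 0.71, 0.25, 0.71, 0 and 0.07 in the same order, and 1 in D5W/topotecan. Medians over all probe sets lay between -0.14 and -0.01. Oas1a was 8.65, 8.42, 8.11 and 10.16 in D5W/topotecan rats, against 7.4, 7.42, 7.9 and 8.23 in D5W/NaCl rats, so the difference of 1.1 (SE 0.33) leaned on rat 92, the highest. The count was 0 without rat 92 or vehicle rat 13, 14 or 19, and 3 without rat 86. In topotecan/D5W it was 1 without rat 26 or vehicle rat 2, and 2 without rat 25.

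At 6 h, 5 to 7 of the 10 members rose in the rats given topotecan. Higher levels were called for 6 of 10 in topotecan/oxaliplatin (3.6% of all probe sets), 7 in oxaliplatin/topotecan (3.78%), 6 in topotecan/D5W (2.74%) and 5 in D5W/topotecan (3.03%). With oxaliplatin alone, 1 of 10 was called in oxaliplatin/NaCl (Oasl, against 0.822%) and 0 of 10 in NaCl/oxaliplatin (0.79%), although 5 and 4 members passed an unadjusted limma p under 0.05. Ifit2, Ifit3, Oas1a and Oasl were called in all 4 topotecan groups, Mx1 and Isg15 in 3 of them (in D5W/topotecan their adjusted p were 0.0131 and 0.0118), and Ifit1 in oxaliplatin/topotecan and D5W/topotecan.

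At 24 h at least 5 of the 10 members rose in every treatment. The counts were 7 of 10 in topotecan/oxaliplatin (9.81% of all probe sets), 7 in oxaliplatin/topotecan (8.04%), 7 in topotecan/D5W (2.84%), 5 in D5W/topotecan (4.92%), 6 in oxaliplatin/NaCl (4.66%) and 6 in NaCl/oxaliplatin (4.8%). Mx1, Ifit2, Ifit3, Oas1a and Oasl were called in all 6. The median member difference was 2.81, 2.2, 1.56, 1.7, 1.83 and 1.2 log2 units in the same order of treatments, against medians over all probe sets between -0.11 and 0.03. No member was called lower than its vehicle at any time, while 4.52% to 8.55% of all probe sets were lower at 24 h. Mx1, Mx2, Ifit2, Ifit3, Oas1a, Oasl and Isg15 were higher in every treated rat than in every rat of the own-order vehicle at 24 h, in each of the 6 treatments. This held for 7 of 10 members, against 21.5% to 28.6% of all probe sets. Below every vehicle rat lay 1 member in topotecan/D5W (Rsad2, against 23% of all probe sets). In D5W/topotecan 2 members did so (Rsad2 and Ifit1, against 21%), and in NaCl/oxaliplatin 2 (Ifit1 and Isg20, against 34.9%).

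**Figure D1:**
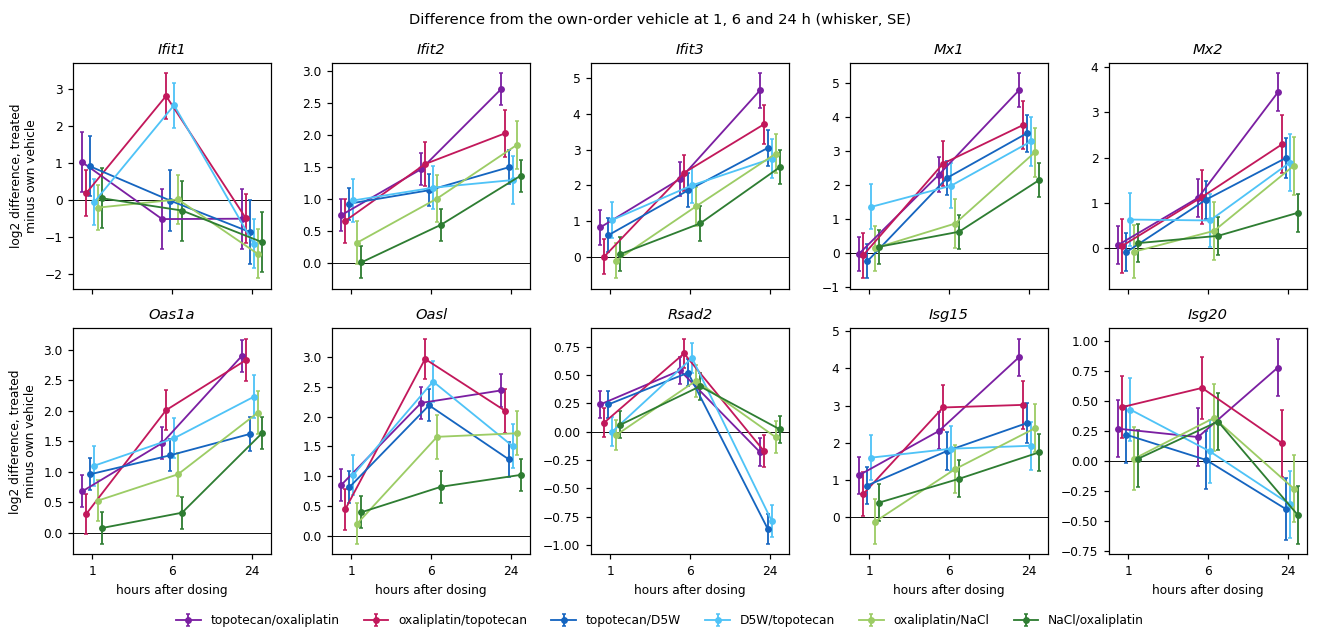
Log2 difference from the own-order vehicle (y axis, points with SE bars) at 1, 6 and 24 h (x axis, evenly spaced categories) for the 10 members, 1 line per treatment. Mx1 differs by 4.78 at 24 h in topotecan/oxaliplatin, Oasl by up to 2.97 already at 6 h, Rsad2 by less than 1 throughout, and Ifit1 crosses 0.

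Mx1 (probe set 1371015_at) was the member with the largest difference in both combinations at 24 h. Its level was 11.85, 11.14, 11.62 and 9.05 in topotecan/oxaliplatin rats, 9.85, 7.92 and 11.16 in topotecan/D5W rats and 8.78, 7.96, 7.77 and 8.58 in NaCl/oxaliplatin rats, against 6.12, 6.16, 5.94 and 6.3 in NaCl/D5W rats. Every treated rat lay above every vehicle rat, and the lowest topotecan/oxaliplatin rat lay above all 4 NaCl/oxaliplatin rats but below 2 of the 3 topotecan/D5W rats. The differences from vehicle were 4.78 (SE 0.5, 27.6-fold, adjusted p = 9.98e-11) in topotecan/oxaliplatin, 3.52 (SE 0.54, 11.4-fold) in topotecan/D5W and 2.14 (SE 0.5, 4.41-fold, limma adjusted p = 0.00033) in NaCl/oxaliplatin.

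With the other order, Mx1 was 9.22, 11.89, 10.74 and 9.27 in oxaliplatin/topotecan rats, 10.88, 10.78, 8 and 9.52 in D5W/topotecan rats and 9.19, 9.15, 8.26 and 11.32 in oxaliplatin/NaCl rats, against 6.61, 6.86 and 6.09 in D5W/NaCl rats. The vehicle rats were again below all treated rats, but the 3 treated groups overlapped widely. The differences were 3.76 (SE 0.71, 13.5-fold), 3.28 (SE 0.71, 9.72-fold) and 2.96 (SE 0.71, 7.79-fold). By group mean, Mx1 was highest in topotecan/oxaliplatin (10.91 ± 1.27), followed by oxaliplatin/topotecan (10.28 ± 1.28), D5W/topotecan (9.8 ± 1.35), topotecan/D5W (9.65 ± 1.63), oxaliplatin/NaCl (9.48 ± 1.3), NaCl/oxaliplatin (8.27 ± 0.48), D5W/NaCl (6.52 ± 0.39) and NaCl/D5W (6.13 ± 0.15, all SD, n = 3 or 4). Neighbours among the 5 highest means differed by less than the SD of either group, while both vehicle means lay below every treated rat.

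Mx2 (1387283_at), whose gene lies beside Mx1 on chromosome 11, was called at 24 h only, in 3 of the 6 treatments. At 24 h it was 11.33, 10.51, 11.35 and 8.2 in topotecan/oxaliplatin rats, 8.82, 7.53 and 10.34 in topotecan/D5W rats and 7.72, 7.48, 7.46 and 8.11 in NaCl/oxaliplatin rats, against 6.84, 6.94, 6.83 and 7.03 in NaCl/D5W rats. Rat 60 of topotecan/oxaliplatin stood well below its 3 companions, as it did for Mx1. Mx2 rose by 3.44 (SE 0.42, 10.8-fold, adjusted p = 3.9e-09) in topotecan/oxaliplatin, by 2.29 (SE 0.64) in oxaliplatin/topotecan and by 1.99 (SE 0.45) in topotecan/D5W. It did not pass the call in D5W/topotecan (1.89, SE 0.64, limma adjusted p = 0.0137), oxaliplatin/NaCl (1.82, SE 0.64, 0.0145) or NaCl/oxaliplatin (0.78, SE 0.42, 0.101). At 6 h its largest difference was 1.13 (SE 0.59), and no group passed.

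The second Mx2 probe set (1369202_at) was dim, with a mean of 5.06, and followed the first only loosely over the 93 arrays (r = 0.34). The exception was rat 53 of topotecan/oxaliplatin at 24 h, at 10 on the second probe set, against a highest vehicle value of 5.29. The next highest array of all was at 6.46. This probe set was not called against vehicle in any treatment at any time, with 1.37 (SE 0.52, limma adjusted p = 0.0189) in topotecan/oxaliplatin at 24 h.

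Ifit3 (1376908_at), an adaptor of the Ifit complex, was close to Mx1 in its differences from vehicle. At 24 h it was 12.29, 11.85, 12.47 and 10.14 in topotecan/oxaliplatin rats, 10, 8.94 and 11.29 in topotecan/D5W rats and 9.78, 9.39, 9.07 and 9.91 in NaCl/oxaliplatin rats, against 6.71, 7.15, 6.91 and 7.32 in NaCl/D5W rats. The treated and vehicle ranges were apart by more than 1 log2 unit in each of these groups. Differences from vehicle were 4.66 (SE 0.48, 25.3-fold, adjusted p = 5.37e-11), 3.05 (SE 0.51, 8.3-fold) and 2.51 (SE 0.48, 5.7-fold) in these 3 treatments.

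In the other order Ifit3 was 10.21, 12.65, 11.34 and 10.54 in oxaliplatin/topotecan rats, 11.13, 10.8, 8.81 and 10.16 in D5W/topotecan rats and 9.68, 9.55, 10.06 and 12.15 in oxaliplatin/NaCl rats, against 7.22, 7.9 and 7.31 in D5W/NaCl rats. Here too every treated rat was above every vehicle rat, and rats 66 (oxaliplatin/topotecan) and 48 (oxaliplatin/NaCl) stood highest. The differences were 3.71 (SE 0.54), 2.75 (SE 0.54) and 2.89 (SE 0.54).

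Ifit2 (1384180_at), which binds AU-rich RNA, had smaller differences with a smaller error. At 24 h it was 11.68, 11.44, 12.13 and 10.35 in topotecan/oxaliplatin rats, 9.88, 9.5 and 11.17 in topotecan/D5W rats and 10.18, 9.97, 9.87 and 10.19 in NaCl/oxaliplatin rats, against 8.71, 8.85, 8.51 and 8.65 in NaCl/D5W rats. The lowest topotecan/oxaliplatin rat was still above all 4 NaCl/oxaliplatin rats. Ifit2 rose by 2.72 (SE 0.25, 6.58-fold, adjusted p = 3.3e-12) in topotecan/oxaliplatin, 2.03 (SE 0.37) in oxaliplatin/topotecan, 1.5 (SE 0.27) in topotecan/D5W, 1.3 (SE 0.37) in D5W/topotecan, 1.85 (SE 0.37) in oxaliplatin/NaCl and 1.37 (SE 0.25) in NaCl/oxaliplatin. Its second probe set (1379568_at) followed the first with r = 0.98 over the 93 arrays. In D5W/topotecan that probe set missed the call at 6 h (1.16, SE 0.39, limma adjusted p = 0.0149) and at 24 h (1.01, SE 0.43, 0.0485). It was called in the other groups where the first was called at these times. At 1 h it was also called in topotecan/D5W (1.08, SE 0.28, limma adjusted p = 0.00181), where the first was not.

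**Figure D2:**
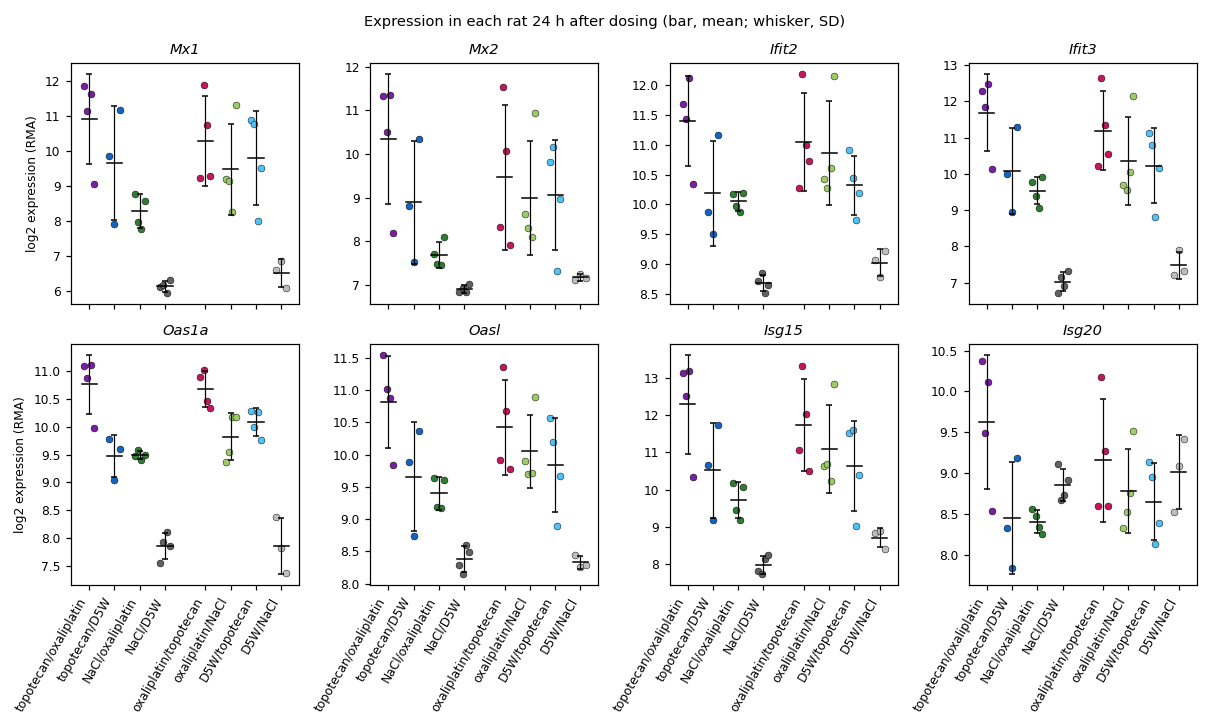
Log2 signal of each rat at 24 h (y axis, points) with the group mean (bar) and SD (whisker) for 8 members, with the 8 treatments along the x axis in 2 blocks, each ending with its vehicle. For Mx1 the 4 NaCl/D5W rats lie between 5.94 and 6.3, below every treated rat, and the topotecan/oxaliplatin rats lie between 9.05 and 11.85.

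Isg15 (1382314_at) rose at 24 h in all treatments but D5W/topotecan. Its level was 13.12, 12.51, 13.17 and 10.34 in topotecan/oxaliplatin rats, 10.65, 9.18 and 11.72 in topotecan/D5W rats and 10.18, 9.45, 9.19 and 10.08 in NaCl/oxaliplatin rats, against 7.81, 7.75, 8.14 and 8.25 in NaCl/D5W rats. The lowest of these treated rats, at 9.18, was above the highest vehicle rat, at 8.25. At 24 h in the other order it was 11.06, 13.32, 12.04 and 10.51 in oxaliplatin/topotecan rats, 11.51, 11.61, 9.02 and 10.38 in D5W/topotecan rats and 10.63, 10.69, 10.24 and 12.84 in oxaliplatin/NaCl rats, against 8.83, 8.89 and 8.42 in D5W/NaCl rats. Rat 95 of D5W/topotecan, at 9.02, was only just above the vehicle range. The change was 19.6-fold in topotecan/oxaliplatin (adjusted p = 1.25e-09), 8.11-fold in oxaliplatin/topotecan (0.00012), 5.77-fold in topotecan/D5W (0.000206), 5.23-fold in oxaliplatin/NaCl (0.00208) and 3.33-fold in NaCl/oxaliplatin (limma adjusted p = 0.0027). In D5W/topotecan the 1.92 difference (SE 0.65) missed the threshold (limma adjusted p = 0.0143).

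Oas1a (1371152_a_at), an oligoadenylate synthetase, had the smallest spread between rats at 24 h among these 7 members (SD 0.36 within groups). It was 11.09, 10.87, 11.11 and 9.98 in topotecan/oxaliplatin rats, 9.78, 9.05 and 9.6 in topotecan/D5W rats and 9.48, 9.59, 9.4 and 9.5 in NaCl/oxaliplatin rats, against 7.54, 7.92, 8.11 and 7.86 in NaCl/D5W rats. In the other order it was 10.9, 11.02, 10.47 and 10.34 in oxaliplatin/topotecan rats, 10.29, 10, 10.27 and 9.76 in D5W/topotecan rats and 9.37, 9.55, 10.18 and 10.18 in oxaliplatin/NaCl rats, against 8.37, 7.82 and 7.37 in D5W/NaCl rats. Every rat of either combination was above every rat given its single agents in the same order. Oas1a rose by 2.9 (SE 0.26, 7.49-fold, adjusted p = 1.25e-12) in topotecan/oxaliplatin, 2.83 (SE 0.35, 7.1-fold) in oxaliplatin/topotecan, 1.62 (SE 0.28) in topotecan/D5W, 2.23 (SE 0.35) in D5W/topotecan, 1.97 (SE 0.35) in oxaliplatin/NaCl and 1.63 (SE 0.26) in NaCl/oxaliplatin.

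Oasl (1377497_at), a relative of the synthetases on the same chromosome 12, was called at 6 h in 5 of the 6 treatments, more than any other member. At 6 h it was 10.31, 10.93, 10.31 and 10.58 in topotecan/oxaliplatin rats, 10.33, 9.79, 10.89 and 10.95 in topotecan/D5W rats and 9.49, 8.82, 9.36 and 8.84 in NaCl/oxaliplatin rats, against 8.15, 8.41, 8.49 and 8.16 in NaCl/D5W rats. At 6 h in the other order it was 10.86, 10.28, 11.2 and 11.52 in oxaliplatin/topotecan rats, 10.74, 10.68, 10.15 and 10.76 in D5W/topotecan rats and 9.35, 9.67 and 9.95 in oxaliplatin/NaCl rats, against 7.95, 8.12, 7.87 and 8.02 in D5W/NaCl rats. Topotecan rats stood above the rats given oxaliplatin alone in the same order, with no overlap, and these stood above vehicle. The differences from vehicle at 6 h were 2.23 (SE 0.27, 4.69-fold), 2.97 (SE 0.34, 7.84-fold), 2.19 (SE 0.27), 2.59 (SE 0.34) and 1.66 (SE 0.37) in topotecan/oxaliplatin, oxaliplatin/topotecan, topotecan/D5W, D5W/topotecan and oxaliplatin/NaCl, all called. In NaCl/oxaliplatin the value was 0.82 (SE 0.27, limma adjusted p = 0.0202).

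At 24 h Oasl differed by 2.44 (SE 0.27), 2.1 (SE 0.37), 1.28 (SE 0.29), 1.5 (SE 0.37), 1.72 (SE 0.37) and 1.02 (SE 0.27) in topotecan/oxaliplatin, oxaliplatin/topotecan, topotecan/D5W, D5W/topotecan, oxaliplatin/NaCl and NaCl/oxaliplatin, all called. The last of these was a 2.03-fold change, just above the 2-fold threshold.

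Whether a difference from vehicle grew between 6 and 24 h was tested as the treatment-by-time interaction. In topotecan/oxaliplatin 5 of 10 members grew, against 4.25% of all probe sets: Ifit3 by 2.48 (SE 0.67), Mx1 by 2.47 (SE 0.71), Mx2 by 2.33 (SE 0.6), Oas1a by 1.44 (SE 0.36) and Ifit2 by 1.24 (SE 0.35). Isg15 had 1.97 (SE 0.71, limma adjusted p = 0.0265), and Oasl 0.21 (SE 0.38). Part of this growth lay in the vehicle means. From 6 to 24 h, Ifit2 went from 10.66 to 11.4 in topotecan/oxaliplatin and from 9.19 to 8.68 in NaCl/D5W. Oas1a went from 9.8 to 10.76 and from 8.33 to 7.86, and Ifit3 from 9.57 to 11.69 and from 7.39 to 7.02. Mx1 went from 8.65 to 10.91 and from 6.34 to 6.13. The vehicle mean of Mx2 did not fall (6.79 and 6.91). In NaCl/oxaliplatin 1 member grew, Oas1a by 1.3 (SE 0.36, with treated means of 8.66 at 6 h and 9.49 at 24 h), against 1.56% of all probe sets. This count was 0 without any one of 7 of the 16 rats in that test, namely 11 and 9 of the vehicle and 78, 84, 76, 81 and 82 of NaCl/oxaliplatin. For topotecan/oxaliplatin the count was 2 without rat 53, 59 or 51 and 3 without rat 57 or vehicle rat 5.

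In the other 4 treatments 0 of 10 members grew. The shares of all probe sets that grew were 4.01% in oxaliplatin/topotecan, 0.981% in topotecan/D5W, 1.93% in D5W/topotecan and 0.822% in oxaliplatin/NaCl, and 2, 2, 3 and 2 members had an unadjusted limma p under 0.05 in either direction. Oasl had -0.87 (SE 0.5), -0.91 (SE 0.4) and -1.09 (SE 0.5) in oxaliplatin/topotecan, topotecan/D5W and D5W/topotecan, none of which passed.

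At 24 h the combination topotecan/oxaliplatin exceeded each of its single agents. Against NaCl/oxaliplatin, 8 of 10 members were higher (0.862% of all probe sets), namely all but Ifit1 and Rsad2. Mx2 was higher by 2.65 (SE 0.42, 6.3-fold), Mx1 by 2.64 (SE 0.5), Isg15 by 2.56 (SE 0.5), Ifit3 by 2.15 (SE 0.48), Oasl by 1.42 (SE 0.27), Ifit2 by 1.34 (SE 0.25), Oas1a by 1.27 (SE 0.26) and Isg20 by 1.23 (SE 0.24). The ranges of the 2 groups did not overlap for 7 of these 8, Isg20 being the exception, while 10.7% of all probe sets were higher without overlap.

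Against topotecan/D5W, 6 of 10 were higher (1.76% of all probe sets): Isg15 by 1.77 (SE 0.54), Mx2 by 1.45 (SE 0.45), Oas1a by 1.29 (SE 0.28), Ifit2 by 1.22 (SE 0.27), Isg20 by 1.18 (SE 0.26) and Oasl by 1.16 (SE 0.29). Ifit3 (1.61, SE 0.51, limma adjusted p = 0.0112) and Mx1 (1.27, SE 0.54, 0.0572) did not pass. All topotecan/oxaliplatin rats lay above all topotecan/D5W rats for 2 of 10 members, Oas1a and Rsad2, against 13.3% of all probe sets. The count of 6 members called higher rested on single animals. It was 1 without rat 35 of topotecan/D5W, 2 without rat 53 and 3 without rat 59 of topotecan/oxaliplatin. It was at most 8 when another rat was left out.

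The combination oxaliplatin/topotecan did not exceed its single agents at 24 h by the same call. Against oxaliplatin/NaCl, 0 of 10 were higher (0.112% of all probe sets, 1 member at an unadjusted limma p under 0.05), with a member median of 0.55. Against D5W/topotecan, 0 of 10 were higher (0.0798% of all probe sets, 2 members at an unadjusted limma p under 0.05), with a member median of 0.61 and a range of 0.4 to 1.1. Each member's value against D5W/topotecan was above 0, with Isg15 at 1.1 (SE 0.6) and Mx1 at 0.48 (SE 0.66). Rsad2 alone passed the adjusted p here (0.62, SE 0.13, limma adjusted p = 0.000452), below the fold threshold.

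At 6 h, topotecan/oxaliplatin exceeded NaCl/oxaliplatin for 2 members (0.766% of all probe sets), Oasl by 1.4 and Oas1a by 1.14. At 6 h, oxaliplatin/topotecan exceeded oxaliplatin/NaCl for 2 members (0.638% of all probe sets), Ifit1 by 2.79 and Oasl by 1.31. For Ifit1 the oxaliplatin/NaCl rats lay between 7.43 and 8.03 and the oxaliplatin/topotecan rats between 10.19 and 10.73. The split of Ifit1 levels among vehicle rats, given below, limits this call too. Neither combination exceeded topotecan alone for any member at 6 h (0.016% and 0.0479% of all probe sets, with 0 and 1 members at an unadjusted limma p under 0.05).

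**Figure D3:**
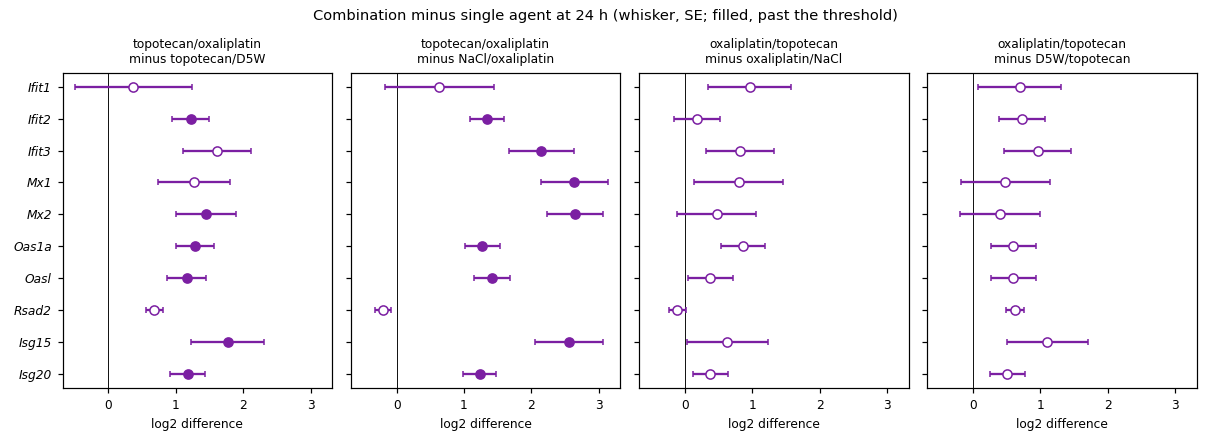
Log2 difference of each combination minus each of its single agents at 24 h (x axis, points with SE bars) for the 10 members (y axis), with filled points for those called. Against NaCl/oxaliplatin the topotecan/oxaliplatin points reach 2.65 for Mx2, while no oxaliplatin/topotecan point is filled.

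The order of infusion was tested as the difference between 2 differences from vehicle. For topotecan/oxaliplatin minus oxaliplatin/topotecan at 24 h, 0 of 10 members were called in the fit of all 24 groups (limma; 0 at an unadjusted p under 0.05, 0% of all probe sets), although the member median was 0.66. Isg15 had 1.28 (SE 0.84), Mx2 1.14 (SE 0.77) and Mx1 1.02 (SE 0.88), so a difference between orders of the size of 1 log2 unit could not be resolved with these animals. For topotecan alone and oxaliplatin alone, first minus second, 0 of 10 were called at 24 h as well (limma; 0 and 0 at an unadjusted p under 0.05, 0% and 0% of all probe sets), with member medians of 0.15 and 0.42.

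Rsad2, Isg20 and Ifit1 did not follow the other 7. Rsad2 (1370913_at) had a strong signal in vehicle marrow too, with a mean over all arrays of 13.52. At 6 h it was 13.99, 14.14, 14.02 and 14.02 in topotecan/oxaliplatin rats, 14.04, 13.78, 14.12 and 14.14 in topotecan/D5W rats and 13.89, 13.77, 13.97 and 13.96 in NaCl/oxaliplatin rats, against 13.69, 13.14, 13.52 and 13.64 in NaCl/D5W rats. All treated rats were above all vehicle rats, by a small margin. The 6 h differences were 0.54, 0.69, 0.52 and 0.65 in the 4 topotecan groups topotecan/oxaliplatin, oxaliplatin/topotecan, topotecan/D5W and D5W/topotecan (limma adjusted p between 3.84e-05 and 0.000506, all below 2-fold).

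At 24 h Rsad2 was 12.25, 12.75 and 12.72 in topotecan/D5W rats and 12.91, 12.6, 12.12 and 12.82 in D5W/topotecan rats, against 13.5, 13.49, 13.33 and 13.41 in NaCl/D5W rats and 13.33, 13.51 and 13.38 in D5W/NaCl rats. Topotecan alone thus gave levels below every vehicle rat. The differences were -0.86 (SE 0.13, adjusted p = 1.51e-06) and -0.79 (SE 0.14, adjusted p = 1.97e-05), which passed the adjusted p and not the fold. In the combinations Rsad2 was close to vehicle (-0.18, SE 0.12, and -0.17, SE 0.14), and it was 0.68 (SE 0.13, adjusted p = 8.95e-05) above topotecan/D5W in topotecan/oxaliplatin and 0.62 (SE 0.13, adjusted p = 0.000452) above D5W/topotecan in oxaliplatin/topotecan. Between 6 and 24 h its difference from vehicle fell by 1.38 (SE 0.18) in topotecan/D5W and fell by 1.45 (SE 0.2) in D5W/topotecan, both called, against 2.78% and 2.97% of all probe sets.

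Cmpk2, a mitochondrial nucleotide kinase that neighbours Rsad2 on chromosome 6, was the 1 gene of 43 further interferon-induced effectors to be called lower at 24 h. It was -1.19 (SE 0.3, limma adjusted p = 0.00131) in D5W/topotecan and -0.96 (SE 0.22, 0.000382) in topotecan/D5W, where the fold was below the threshold. In the other 4 treatments Cmpk2 lay between -0.66 and -0.17.

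Isg20 (1390507_at) was called against vehicle in none of the 6 treatments at 24 h. It was 10.37, 9.49, 10.12 and 8.53 in topotecan/oxaliplatin rats, 8.33, 7.83 and 9.18 in topotecan/D5W rats and 8.56, 8.47, 8.34 and 8.25 in NaCl/oxaliplatin rats, against 9.11, 8.67, 8.73 and 8.91 in NaCl/D5W rats. Rat 60 again lay lowest in topotecan/oxaliplatin and below all 4 vehicle rats. The difference from vehicle was 0.78 (SE 0.24, 1.72-fold, limma adjusted p = 0.00462), below the fold threshold, and the single agents of that order had -0.4 (SE 0.26) and -0.45 (SE 0.24).

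Ifit1 (1369836_at), which binds 5′ ends of foreign RNA, split the vehicle rats themselves into 2 ranges. Of the 23 vehicle rats, 6 lay between 7 and 7.43 and 17 between 9.22 and 10.34, with none between. At 6 h, 3 of the 4 D5W/NaCl rats were in the lower range (7.37, 9.31, 7.25 and 7.12), while NaCl/D5W had none (9.83, 9.66, 9.58 and 10.07). Of the treated rats, 7 of 24 were below 8.5 at 1 h and 7 of 23 at 6 h. At 6 h the levels were 10.62, 10.19, 10.69 and 10.73 in oxaliplatin/topotecan rats, 10.23, 10.21, 10.18 and 10.64 in D5W/topotecan rats and 8.03, 7.84 and 7.43 in oxaliplatin/NaCl rats. The 2 calls against D5W/NaCl at 6 h (2.8, SE 0.61, and 2.55, SE 0.61) were made against that vehicle group, and with both vehicle groups pooled the differences were 1.78 and 1.54 (limma adjusted p = 0.0122 and 0.0339), no longer called.

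At 24 h all 7 vehicle rats were in the upper Ifit1 range, and 11 of 23 treated rats lay between 7.58 and 8.48. The other 12 lay between 8.8 and 11.04, so the gap of the vehicle rats, from 7.43 to 9.22, was not empty. The differences from vehicle ran from -1.46 (SE 0.66) in oxaliplatin/NaCl to -0.5 (SE 0.66) in oxaliplatin/topotecan, and none passed (smallest limma adjusted p = 0.0564). The difference from vehicle was lower at 24 than at 6 h by the call in D5W/topotecan (-3.74, SE 0.9) and oxaliplatin/topotecan (-3.29, SE 0.9), against 2.97% and 3.91% of all probe sets, and both values rest on the same D5W/NaCl rats at 6 h. Over the 93 arrays Ifit1 went with the mean of the other 9 members only weakly (r = 0.12). Ifit1 lies beside Ifit2 and Ifit3 on chromosome 1, and whether its probe set also binds related sequences was not tested.

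**Figure D4:**
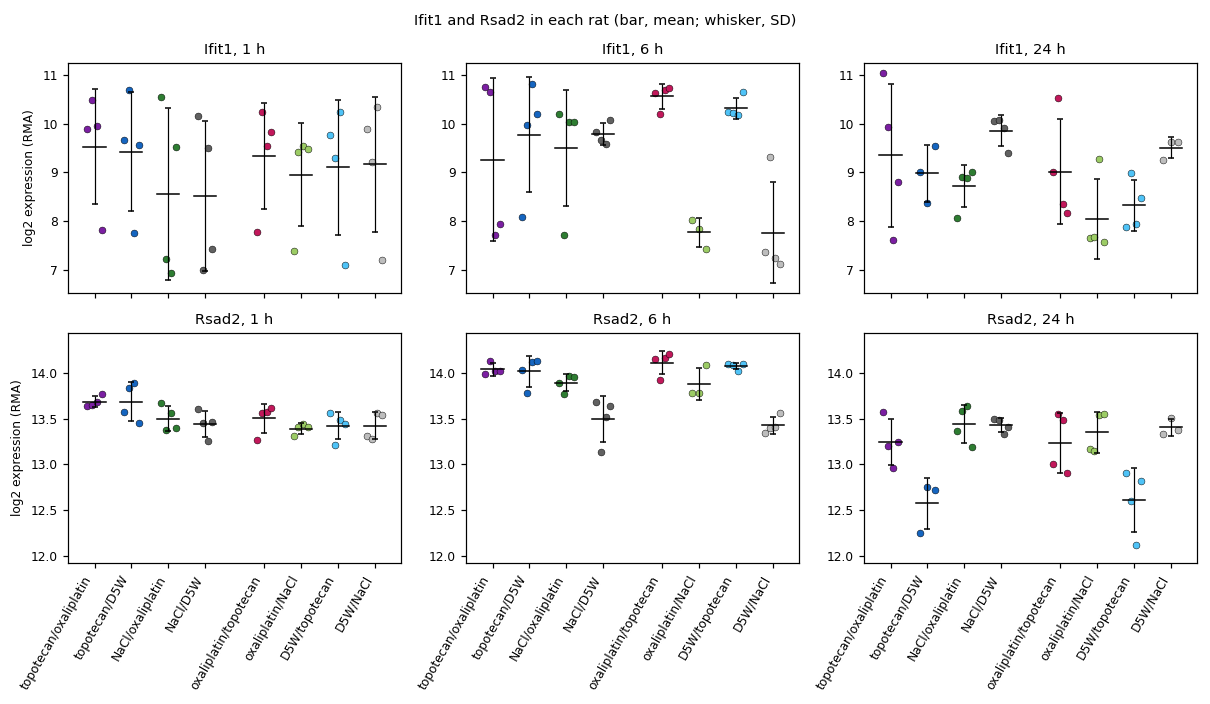
Log2 signal of each rat (y axis, points) for Ifit1 and Rsad2 at 1, 6 and 24 h by treatment (x axis). At 1 and 6 h Ifit1 falls into an upper and a lower range with vehicle rats in both. At 24 h all vehicle rats are in the upper range, and treated rats also lie between the ranges. Rsad2 lies between 12.12 and 12.91 in the rats given topotecan alone at 24 h.

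The members that rose varied more between rats of 1 group than nearly all other genes. The pooled SD within groups was 0.87 for Mx1, above 99.7% of probe sets, 0.82 for Isg15, 0.76 for Mx2 and 0.72 for Ifit3, against a median of 0.18 over all probe sets. Oasl (0.45), Ifit2 (0.44) and Oas1a (0.43) were less spread, and Rsad2 (0.18) was at the median. For Mx2, Mx1 and Isg15 the spread was widest at 24 h, with SDs of 1.15, 1.1 and 1.02.

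The same rats were high or low for most members. The deviation of a rat from its group mean correlated with the mean deviation of the other 9 members at r = 0.77 to 0.9 for Ifit2, Ifit3, Mx1, Mx2, Oasl, Isg15 and Isg20, at 0.5 for Oas1a, 0.49 for Rsad2 and 0.04 for Ifit1 (93 arrays, which the genes share, with no test). Rat 66 of oxaliplatin/topotecan at 24 h was the highest of its group for all 10 members, and rat 48 of oxaliplatin/NaCl for 9. Rat 60 of topotecan/oxaliplatin was the lowest of its group for 8 members and rat 35 of topotecan/D5W for 9.

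Rat 92 of D5W/topotecan, killed at 1 h, stood far above its group for several members. It had Isg15 at 12.49, Ifit2 at 10.84, Oasl at 10.5, Mx1 at 10.38, Oas1a at 10.16 and Mx2 at 9.71. Its Ifit1, at 7.11, was in the lower range. Its levels of Mx1 and Isg15 were as high as those of treated rats at 24 h.

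**Figure D5:**
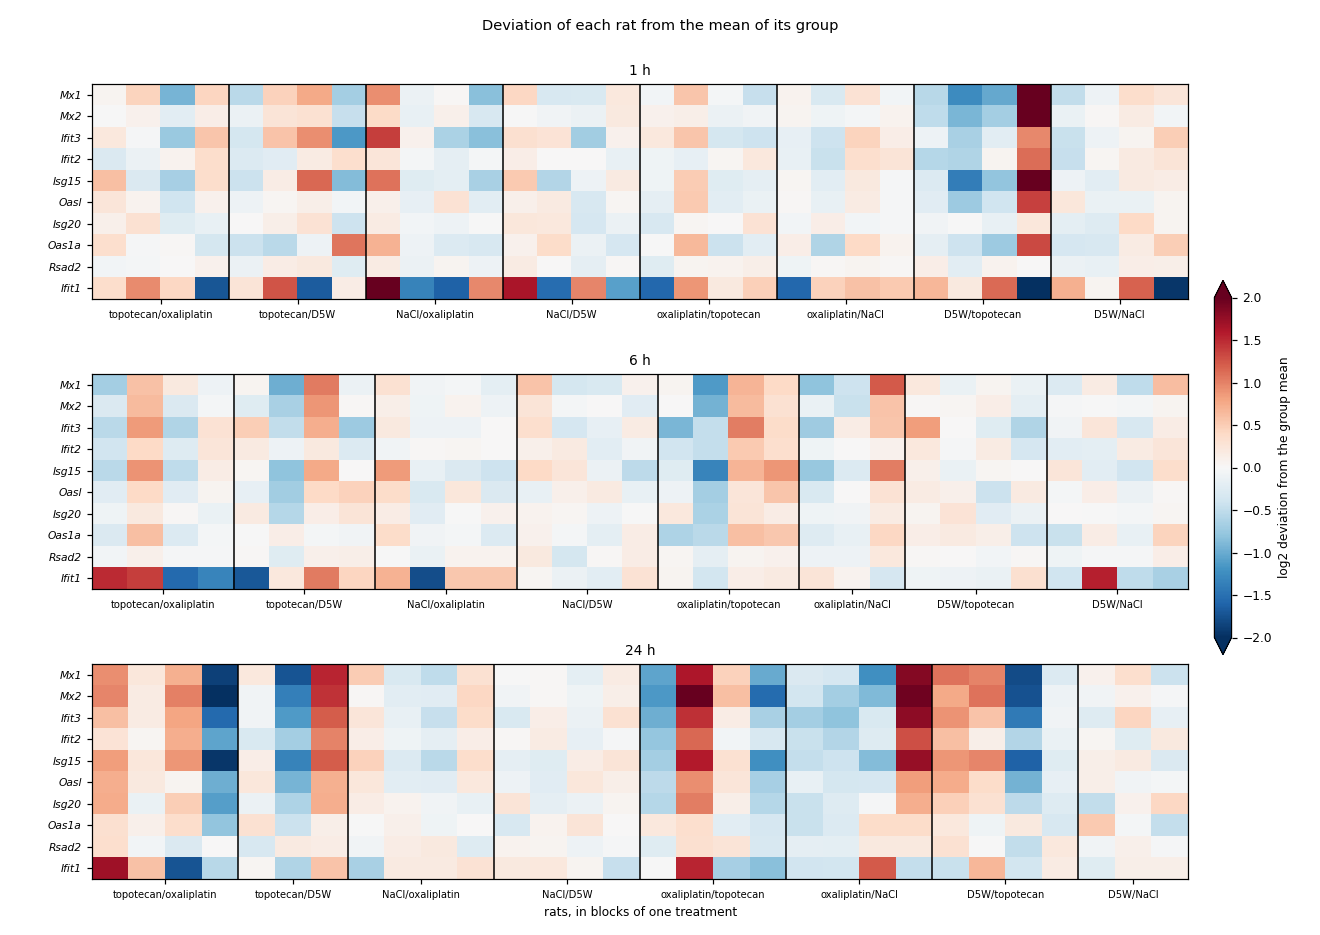
Deviation of each rat from its group mean (colour, log2 units, capped at 2 in either direction) for the 10 members (rows) and the rats of each treatment (columns) at 1, 6 and 24 h. Columns are coloured alike over most rows, rat 92 is the dark red last column of D5W/topotecan at 1 h, and the Ifit1 row goes its own way.

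The rest of the pathway was read from 4 lists. Of 11 ligands and receptors 5 were measured (Ifnar1, Ifnar2, Ifngr1, Ifngr2 and Il10rb), and none was called in any treatment at 24 h. Ifngr1, a receptor chain for interferon gamma, had 0.73 (SE 0.08), and Ifnar1, a receptor chain for type I interferon, -0.41 (SE 0.13) in topotecan/oxaliplatin, both below 2-fold. No interferon gene of the list was measured.

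Of 11 signal transducers and feedback genes measured, 4 rose at 24 h in topotecan/oxaliplatin and 4 in oxaliplatin/topotecan, and 2, 1, 2 and 2 in topotecan/D5W, D5W/topotecan, oxaliplatin/NaCl and NaCl/oxaliplatin. The shares of all probe sets higher at 24 h were 9.81%, 8.04%, 2.84%, 4.92%, 4.66% and 4.8% in the same order. Counts of the lists were not tested against these shares. Usp18, which removes Isg15 and dampens the receptor, rose by 3.46 and 2.28 in the 2 combinations, Irf7, a transcription factor for interferon genes, by 3.08 and 2.18, Irf1 by 1.46 and 1.48, and Stat2 by 1.33 and 1.16. Of 7 nucleic acid sensors measured, 3 rose in each combination, and in topotecan/oxaliplatin these were Dhx58 (2.22), Eif2ak2 (1.63) and Zbp1 (1.46). Of 43 further effectors, 21 rose in topotecan/oxaliplatin, 15 in oxaliplatin/topotecan, 13 in topotecan/D5W, 6 in D5W/topotecan, 6 in oxaliplatin/NaCl and 9 in NaCl/oxaliplatin. Ifi27l2b (3.89), Ifi44l (3.66), Rtp4 (3.34) and the chemokine Cxcl10 (2.74) were among those in topotecan/oxaliplatin.

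The genes outside the members whose level went most closely with the mean of the 10 over the 93 arrays were Usp18 (r = 0.94), Parp12 (0.93), Slfn2 (0.93), Irf7 (0.92), Rtp4 (0.91), Dhx58 (0.91), Znfx1 (0.9), Herc6 (0.89), Irgm2 (0.88) and RT1-T24-3 (0.88). These points share arrays and groups, so the values are a description.

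Cell type markers moved beside the members at 24 h. The shares of all probe sets called higher and lower at 24 h, given above, stand beside these counts too. Of 9 erythroid markers measured, 8 were lower in topotecan/oxaliplatin, oxaliplatin/topotecan, topotecan/D5W and D5W/topotecan, and 6 in oxaliplatin/NaCl and NaCl/oxaliplatin. The mean log2 level of the erythroid list lay at 10.3 to 11.13 in topotecan/oxaliplatin and 11.28 to 11.54 in NaCl/oxaliplatin, against 13.16 to 13.28 in NaCl/D5W. Of 3 granulocyte precursor markers measured, 1 was lower in each combination and each oxaliplatin-alone group and none with topotecan alone. This was Fcnb, whose difference from vehicle was -4.06 in topotecan/oxaliplatin rats and -4.56 with the combination given in the other order (SE 0.25 each). Camp and Cebpe stayed below 2-fold. They were above vehicle with oxaliplatin alone, at 0.34 and 0.76 in oxaliplatin/NaCl and 0.37 and 0.85 in NaCl/oxaliplatin. In the combinations they were -0.21 and -0.56 in topotecan/oxaliplatin and -0.18 and -0.42 in oxaliplatin/topotecan. The mean log2 level of that list was 10.55 to 11.14 in topotecan/oxaliplatin and 10.56 to 11.09 in oxaliplatin/topotecan, and 11.9 to 12.5 over the 4 single-agent groups, against 12.43 to 12.57 in NaCl/D5W and 12.46 to 12.65 in D5W/NaCl. Of 7 mature neutrophil markers, 3 were higher in topotecan/oxaliplatin (Csf3r, Cxcr2 and Il1b), 4 in oxaliplatin/topotecan (the same 3 and Mmp9), 3 in each oxaliplatin-alone group (Mmp9, Cxcr2 and Il1b) and none with topotecan alone. S100a8 (0.05) and S100a9 (0.03) were near vehicle in topotecan/oxaliplatin. Il1b was already called higher at 1 h in all topotecan groups (2.12 to 2.72). T and NK cell markers were higher for 5 of 8 in both combinations. Cd3d and Cd3e were also called higher in all 4 single-agent groups, Klrd1 in all of these but oxaliplatin/NaCl, and Cd3g in NaCl/oxaliplatin. Nkg7 was -0.43 in each combination (SE 0.13 in topotecan/oxaliplatin and 0.14 in oxaliplatin/topotecan), below 2-fold, and Gzmb was called in no treatment. In topotecan/oxaliplatin, 3 of 11 monocyte and macrophage markers were higher and 1 lower, while the 3 B cell markers (-0.72 to 0.88) and the 4 megakaryocyte markers (0.46 to 0.8) stayed below the fold threshold. The B cell marker Ms4a1 was called higher in topotecan/D5W (1.17), D5W/topotecan (1.2) and oxaliplatin/topotecan (1.15). The B cell markers Cd79b and Ebf1 were called in no treatment at 24 h. Of 4 plasmacytoid dendritic cell markers measured, 1 was higher in topotecan/oxaliplatin, Bst2, which is itself interferon-induced, and none in the other 5 treatments. Their mean log2 level was 9.62 to 9.96 in topotecan/oxaliplatin, 9.75 to 9.79 in topotecan/D5W and 9.22 to 9.46 in NaCl/oxaliplatin, against 9.25 to 9.43 in NaCl/D5W. In the other order it was 9.47 to 9.55 in oxaliplatin/topotecan, 9.57 to 9.94 in D5W/topotecan and 9.29 to 9.81 in oxaliplatin/NaCl, against 9.31 to 9.43 in D5W/NaCl. The part of these shifts in the members' differences was not tested. Skeletal muscle genes were high in rats 41 and 42 (oxaliplatin/NaCl, 24 h, list means of 9.26 and 9.16) and rat 52 (topotecan/oxaliplatin, 6 h, 10.11), against a median of 6.15 over the 93 arrays, and without these 3 arrays no count of members called differed by more than 1.5 times. Array medians lay between 8.79 and 9.3, and any 2 arrays correlated at 0.831 or more.

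In vehicle rats no member passed the call in the comparisons made, which did not include 24 h against 6 h. From 1 to 24 h, 0 of 10 were called in NaCl/D5W (0.0319% of all probe sets) and 0 of 10 in D5W/NaCl (0.0239%), with 0 at an unadjusted limma p under 0.05 in either, and D5W/NaCl minus NaCl/D5W gave 0 of 10 at 1, 6 and 24 h (limma, 0% of all probe sets each time, with 0, 1 and 0 members at an unadjusted p under 0.05). The 1 member was Ifit1 at 6 h (-2.02, SE 0.73).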

How the data were processed

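Bone marrow RNA of 93 rats was measured on 1 array each. Per the labels and the study's methods, the authors normalised the arrays by RMA and kept probe sets passing a filter on the agreement of their probes (pvac), and the deposited values are log2 signals, used as given. RMA draws all arrays to 1 distribution, so a change shared by all genes is not visible, and the signals have no counting depth. Of 12560 probe sets, 28 array controls were left out. Gene names came from the platform annotation: 10002 of the probe sets tested had 1 symbol, 292 several and 2238 none. Only probe sets with 1 symbol were named, by the one with the highest mean for each gene.

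Linear models of group means with moderated variances (limma 3.58.1, R 4.3.3) were made in 1 fit of 12 groups for each vehicle, as the methods split the treatments, and in 1 fit of all 24 groups for infusion order and for the 2 vehicles. P-values were adjusted by Benjamini-Hochberg within a comparison over 12532 probe sets, and a call needed an adjusted p under 0.01 and a fold above 2. Data for 12532 probe sets were simulated as normal noise around each probe set's mean over all arrays. The SD was pooled over the 12 groups of the fit with NaCl/D5W. Changes were planted in randomly picked probe sets in topotecan/oxaliplatin at 24 h. Against NaCl/D5W, 98 of 100 changed by 1.5 log2 units and 100 of 100 changed by 3 were called, with 0 false calls. The noise was equal in all groups, so this recovery does not describe members whose spread was wide at 24 h. The named genes were the 10 members, the pathway and marker lists, and the 10 genes whose level correlated best with the members' mean. Members and lists were chosen with earlier results of these data known. Alternatives were another fit, prior, call, normalization and probe set rule, a filter on dim probe sets, pooled vehicles, animal sets, code columns of the labels as a random block, and each rat left out in turn.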

Additional observations from a re-analysis of the deposited data

Results flagged for a closer look

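Within groups of 4 rats, 17 of 210 checks of a member in a group found a rat set apart from the other 3 (Dixon's ratio), where chance alone gives about 1 in 20. Ifit1 had 6 of them: rat 16 of D5W/NaCl at 6 h (9.31, nearest 7.37), rat 37 of oxaliplatin/NaCl at 1 h (7.38, nearest 9.42), rat 47 of oxaliplatin/NaCl at 24 h (9.28, nearest 7.68), rat 76 of NaCl/oxaliplatin at 6 h (7.72, nearest 10.04), rat 77 of NaCl/oxaliplatin at 24 h (8.07, nearest 8.89) and rat 94 of D5W/topotecan at 6 h (10.64, nearest 10.23). Mx2 had 1, rat 92 of D5W/topotecan at 1 h (9.71, nearest 7.09), and Oas1a had 1, rat 94 of D5W/topotecan at 6 h (9.11, nearest 9.64).

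Oasl had 3 such rats, rat 48 of oxaliplatin/NaCl at 24 h (10.89, nearest 9.9), rat 62 of oxaliplatin/topotecan at 1 h (9.08, nearest 8.43) and rat 93 of D5W/topotecan at 6 h (10.15, nearest 10.68). Rsad2 had 3, all low: rat 61 of oxaliplatin/topotecan at 1 h (13.27, nearest 13.56), rat 64 of oxaliplatin/topotecan at 6 h (13.93, nearest 14.16) and rat 93 of D5W/topotecan at 6 h (14.03, nearest 14.09). Isg20 had 3, rat 28 of topotecan/D5W at 6 h (8.4, nearest 9.11), rat 38 of oxaliplatin/NaCl at 1 h (8.96, nearest 8.79) and rat 64 of oxaliplatin/topotecan at 6 h (8.87, nearest 9.65).

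The difference from vehicle changed between 6 and 24 h by the interaction test (limma) for 10 pairs of member and treatment. In topotecan/oxaliplatin it grew by 1.24 for Ifit2, 2.48 for Ifit3, 2.47 for Mx1, 2.33 for Mx2 and 1.44 for Oas1a, and in NaCl/oxaliplatin by 1.3 for Oas1a. For Rsad2 it was -1.38 in topotecan/D5W and -1.45 in D5W/topotecan, and for Ifit1 -3.74 in D5W/topotecan and -3.29 in oxaliplatin/topotecan. The second Mx2 probe set, which the main counts of members did not use, was at 10 in rat 53 of topotecan/oxaliplatin at 24 h, against a highest vehicle value of 5.29.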

How the results depend on the processing

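No direction of a called result was reversed by any alternative. Counts of members called that moved by more than 1.5 times were as follows, with the cause not tested beyond the smaller number of rats in an animal set. Using only the higher-numbered rats of each group (2 or fewer a group), the 24 h counts were 1 in topotecan/D5W, 1 in NaCl/oxaliplatin, 3 in oxaliplatin/NaCl, 3 in oxaliplatin/topotecan and 1 in D5W/topotecan, the 6 h counts 1 in topotecan/oxaliplatin, topotecan/D5W and D5W/topotecan and 0 in oxaliplatin/NaCl, the 1 h counts 1 in topotecan/D5W and 0 in D5W/topotecan, topotecan/oxaliplatin gave 0 against either single agent at 24 h, and growth from 6 to 24 h gave 0 in topotecan/oxaliplatin and 0 in NaCl/oxaliplatin. Using only the lower-numbered rats, the counts were 0 in oxaliplatin/NaCl and 4 in oxaliplatin/topotecan at 6 h, 1 for oxaliplatin/topotecan against oxaliplatin/NaCl at 24 h, and 3 (topotecan/oxaliplatin) and 0 (NaCl/oxaliplatin) for growth. The Mx1 difference in topotecan/oxaliplatin at 24 h was 5.37 and 4.19 in the lower-numbered and higher-numbered rats.

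At 1 h, topotecan/D5W had 2 members without a minimum fold, 2 after a second quantile normalization, 2 with pooled vehicles and 1 with the mean of a gene's probe sets. Topotecan/oxaliplatin had 1 without a minimum fold and 1 after quantile normalization, and D5W/topotecan had 2 with all 24 groups in 1 fit and 0 with the code column as a block. Oxaliplatin/topotecan against D5W/topotecan at 24 h had 1 without a minimum fold. Growth from 6 to 24 h in topotecan/oxaliplatin counted 2 with all 24 groups in 1 fit, 3 with the mean of probe sets and 3 without the dimmest probe sets (those under the 25th percentile of means, Mx1 and Mx2 among them), and in NaCl/oxaliplatin 0 with all 24 groups. Leaving out each rat in turn, the counts ran from 0 to 2 in topotecan/D5W and 0 to 3 in D5W/topotecan at 1 h, 1 to 8 for topotecan/oxaliplatin against topotecan/D5W at 24 h, 2 to 6 for growth in topotecan/oxaliplatin and 0 to 1 in NaCl/oxaliplatin. The animal set as a term, a variance prior with trend and robust estimation, and leaving out the 3 muscle-high arrays moved no count by more than 1.5 times. No paired analysis was possible because each rat has its own number, which no other group shares. With 3 or 4 rats a group, the number of arrays limits the precision.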
